A study of Mus musculus with 6 samples.

Results

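The genes described here mark cell types that surround or abut the proximal tubule of the mouse kidney: 10 endothelial, 3 podocyte, 14 stromal and 12 immune genes, 39 of the 21884 protein-coding genes annotated. They were taken by name as markers of these cell types. Each was searched for open chromatin in 2 ways: at its promoter, meaning a peak whose summit lies within 1 kb of an annotated transcription start, and apart from the promoter, in the gene body or within 20 kb of the gene. The assay was ATAC-seq, in which the Tn5 transposase places sequencing adapters where DNA is not covered by nucleosomes, so that open promoters and enhancers appear as peaks of fragments. The question such genes can address is how much open chromatin of other cells came along with hand-dissected tubules, in each library and in each group.

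The study had 6 libraries from the first segment (S1) of the proximal tubule, dissected by hand from the kidneys of wild-type male C57BL/6 mice (Taconic) aged 7 weeks. The Sham group, with 3 libraries, had a sham operation, and the UNx group, also with 3, had 1 kidney surgically removed (unilateral nephrectomy), both 24 h before the tubules were taken. Each library was made from 3 tubules, so a few cells of a vessel or of the glomerulus attached to a tubule would be part of the sample. The labels do not say that each library came from a different mouse, so the p-values measure the spread between these libraries.

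Endothelial cells line the capillaries that wrap every tubule, podocytes cover the glomerular capillaries where the S1 segment begins, and stromal cells (fibroblasts, pericytes, smooth muscle and renin cells) and resident macrophages lie in the interstitium between tubules. A gene used by 1 cell type is often closed in others, and its promoter then gives no peak, whereas promoters rich in CpG dinucleotides are often open in many cell types whether or not the gene is used. A peak at a marker gene is therefore a sign of the marker's cell type only where the promoter or enhancer is restricted to it. In a bulk library such as these, fewer cells of a type and less open chromatin per cell cannot be told apart.

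Each deposited list held between 77355 peaks (Sham 2) and 100999 peaks (UNx 2), and the lists were cut to the 77355 strongest. Peaks were ranked by the authors' −log10 q, and the rank is given as a percentile, where 100 is the strongest peak of a library and 0 means no peak. The weakest peak kept had a −log10 q of 6.07, 1.30 and 6.35 in Sham 1 to 3 and of 4.76, 7.55 and 7.83 in UNx 1 to 3, so a weak peak had to be stronger to be kept in UNx 2 and UNx 3. The labelled segment's own markers were open: 19 of 20 proximal tubule genes had a promoter peak in every list, with list medians between the 86th and the 89th percentile, while 6, 6 and 7 (Sham) and 9, 7 and 7 (UNx) of 17 genes of other nephron segments had one.

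The promoter sequences that frame the results are shown first, as the 250 bases before the RefSeq start in build GRCm38.p6, 5′ to 3′ on the strand of the gene, with each CG in capitals. The first 3 are CpG-rich promoters of endothelial genes, Tie1 is an endothelial promoter with few CpGs, and Ptprc and Cd3e are immune promoters that had no peak in any list. Their positions are chr17:73804591-73804840 (Ehd3, plus strand), chr5:147726012-147726261 (Flt1, minus), chr5:75978456-75978705 (Kdr, minus), chr4:118489850-118490099 (Tie1, minus), chr1:138175306-138175555 (Ptprc, minus) and chr9:45009612-45009861 (Cd3e, minus).
Ehd3: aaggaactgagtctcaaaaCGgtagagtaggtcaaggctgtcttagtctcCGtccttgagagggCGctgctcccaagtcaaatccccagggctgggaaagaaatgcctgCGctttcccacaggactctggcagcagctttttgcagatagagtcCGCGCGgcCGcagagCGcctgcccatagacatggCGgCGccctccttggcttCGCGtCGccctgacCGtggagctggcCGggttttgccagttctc
Flt1: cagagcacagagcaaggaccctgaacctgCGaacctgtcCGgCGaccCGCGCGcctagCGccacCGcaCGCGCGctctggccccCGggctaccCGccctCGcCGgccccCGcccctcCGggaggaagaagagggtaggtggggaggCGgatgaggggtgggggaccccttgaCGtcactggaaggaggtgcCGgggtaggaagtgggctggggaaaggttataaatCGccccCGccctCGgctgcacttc
Kdr: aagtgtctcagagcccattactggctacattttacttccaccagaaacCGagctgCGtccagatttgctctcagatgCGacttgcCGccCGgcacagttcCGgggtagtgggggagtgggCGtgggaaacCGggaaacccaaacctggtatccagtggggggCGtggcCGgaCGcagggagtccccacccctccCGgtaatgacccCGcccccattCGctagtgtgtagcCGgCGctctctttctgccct
Tie1: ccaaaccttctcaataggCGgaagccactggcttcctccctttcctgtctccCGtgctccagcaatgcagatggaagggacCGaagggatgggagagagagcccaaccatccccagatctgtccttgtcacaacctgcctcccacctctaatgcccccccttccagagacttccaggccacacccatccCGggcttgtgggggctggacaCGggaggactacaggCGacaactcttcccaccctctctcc
Ptprc: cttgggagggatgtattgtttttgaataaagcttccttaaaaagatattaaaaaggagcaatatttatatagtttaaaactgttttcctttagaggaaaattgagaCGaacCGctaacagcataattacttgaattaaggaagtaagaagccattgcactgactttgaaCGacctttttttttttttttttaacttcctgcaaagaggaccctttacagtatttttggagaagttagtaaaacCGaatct
Cd3e: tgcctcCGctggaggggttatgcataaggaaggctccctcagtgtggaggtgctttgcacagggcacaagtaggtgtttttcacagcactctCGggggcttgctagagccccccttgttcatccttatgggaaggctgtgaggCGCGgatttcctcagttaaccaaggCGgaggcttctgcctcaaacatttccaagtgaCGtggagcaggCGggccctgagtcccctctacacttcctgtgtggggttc
These stretches held 16 CGs in Ehd3, 23 in Flt1 and 16 in Kdr, against 6 in Tie1, 4 in Ptprc and 7 in Cd3e. GC content was 70.4% in Flt1 and 31.6% in Ptprc, the extremes of the 6.

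Of the 39 genes, 13, 14 and 13 had a promoter peak in Sham 1 to 3 and 10, 8 and 6 in UNx 1 to 3. The mean was 13.3 ± 0.577 (SD, n = 3) in Sham and 8 ± 2 (SD, n = 3) in UNx, and every Sham count lay above every UNx count. For all coding genes the counts were between 13057 and 13206 in the 6 lists, which is 59.7% to 60.3%, so the marker genes had fewer open promoters than coding genes in general in every library. A total of 22 genes had no promoter peak in any list, and 6 had one in all lists: Egfl7, Ehd3, Podxl, Synpo, Pdgfra and Col1a1. The count of lists was higher in Sham than in UNx for 11 of the 39 genes and the reverse for 0, whereas among all coding genes the shares were 2.92% and 2.77%. The members' lower count in UNx was smaller when no list was cut: 16, 14 and 15 of 39 in Sham against 12, 14 and 11 in UNx. It vanished in shorter lists of equal length, made from peaks with a −log10 q of at least 5 and cut to the shortest. There the counts were 8, 6 and 8 against 8, 8 and 6. This cut also removed peaks above 5, such as that of Cdh5 in Sham 1 at 6.85. For these 39 genes the difference thus lay among lower-ranked peaks that the shorter lists leave out. The lists end at different −log10 q in the 6 libraries, and whether this made the difference was not tested.

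**Figure D1:**
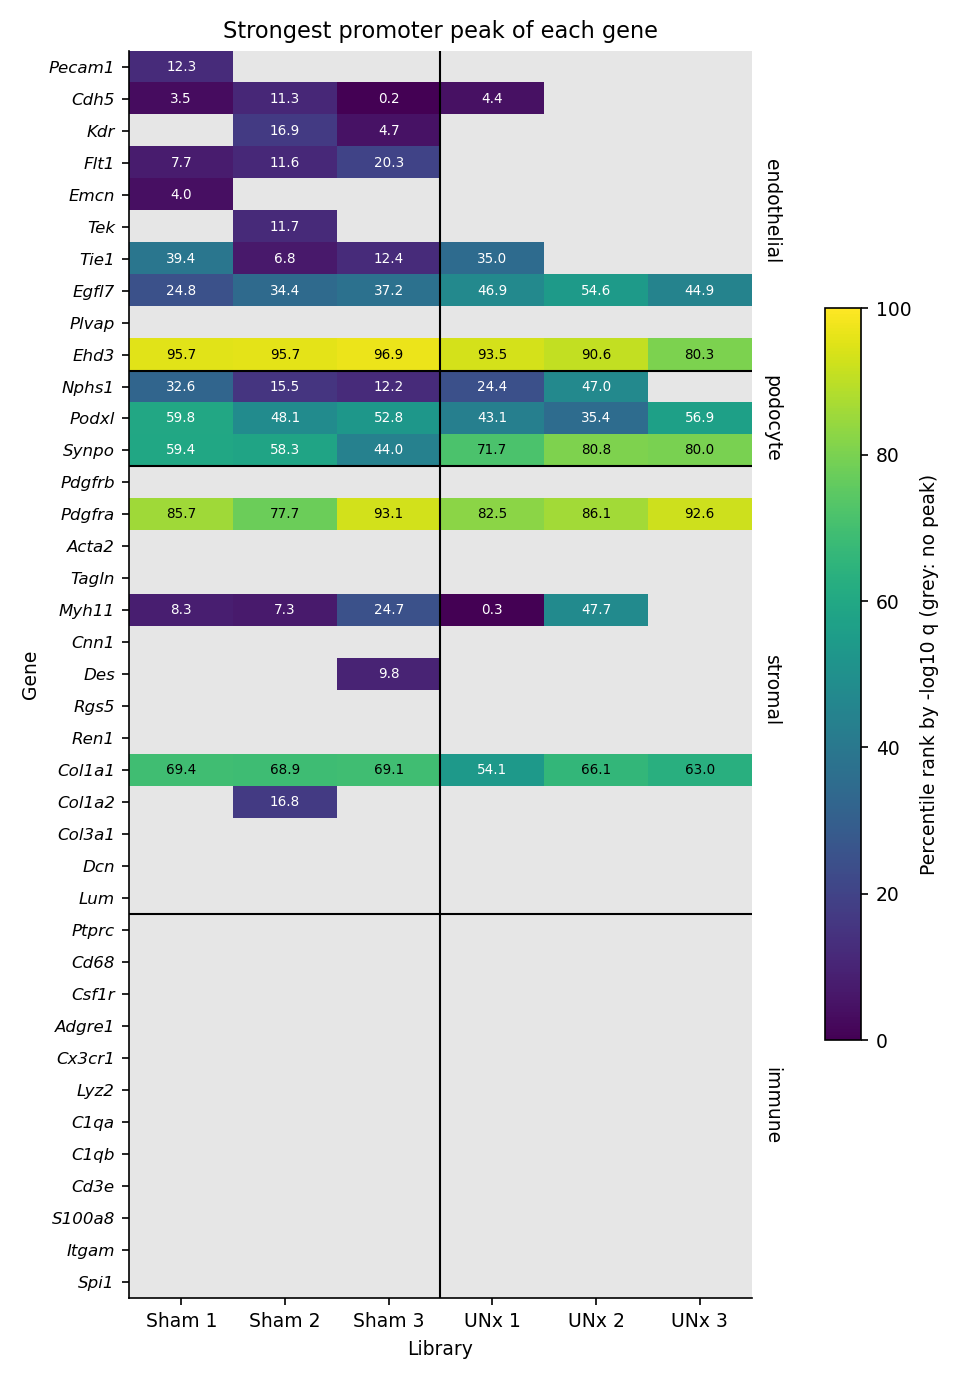
Percentile rank (0 to 100, by −log10 q) of the strongest promoter peak of each of the 39 genes (rows, by cell class) in each of the 6 libraries (columns), in lists cut to equal length, with grey for no peak. Endothelial rows thin out from left to right, while all 12 immune rows are grey throughout.

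By class, the endothelial genes differed between the groups and the immune genes had no promoter peak in either. Endothelial promoters had a peak for 7, 7 and 6 of 10 genes in Sham and for 4, 2 and 2 in UNx (mean 6.67 ± 0.577 against 2.67 ± 1.15, SD, n = 3 each). Podocyte promoters had one for 3 of 3 in every list but UNx 3, which had 2. Stromal promoters had one for 3, 4 and 4 of 14 in Sham and 3, 3 and 2 in UNx. Immune promoters had one for 0 of 12 in each of the 6 lists, also when all deposited peaks were used.

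A list of 20 other endothelial genes, among them Eng, Esam, Erg and Fli1, was counted in the same way. It had a promoter peak for 13, 12 and 11 genes in Sham and 9, 10 and 6 in UNx. Like the members, it was chosen with earlier results of these data known, so it is no independent check. In all deposited peaks the 2 endothelial lists parted: the 10 genes gave 9, 7 and 8 against 6, 7 and 4, and the 20 other genes 15, 12 and 15 against 15, 13 and 6. There the low count of the 20 genes was that of UNx 3, since without it the groups' means differed by 0, and for the 10 genes the difference was −1.5 genes without it. In the shorter lists, of peaks with a −log10 q of at least 5 cut to equal length, the 10 genes gave 3, 2 and 3 against 3, 2 and 2. The 20 other genes gave 8, 7 and 8 against 6, 6 and 5 in those lists. Other podocyte genes (11, 12 and 13 of 15 in Sham, 13, 12 and 10 in UNx), other stromal genes (11, 10 and 10 of 18, against 11, 10 and 11) and other immune genes (3, 3 and 3 of 20, against 4, 2 and 4) overlapped between the groups.

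**Figure D2:**
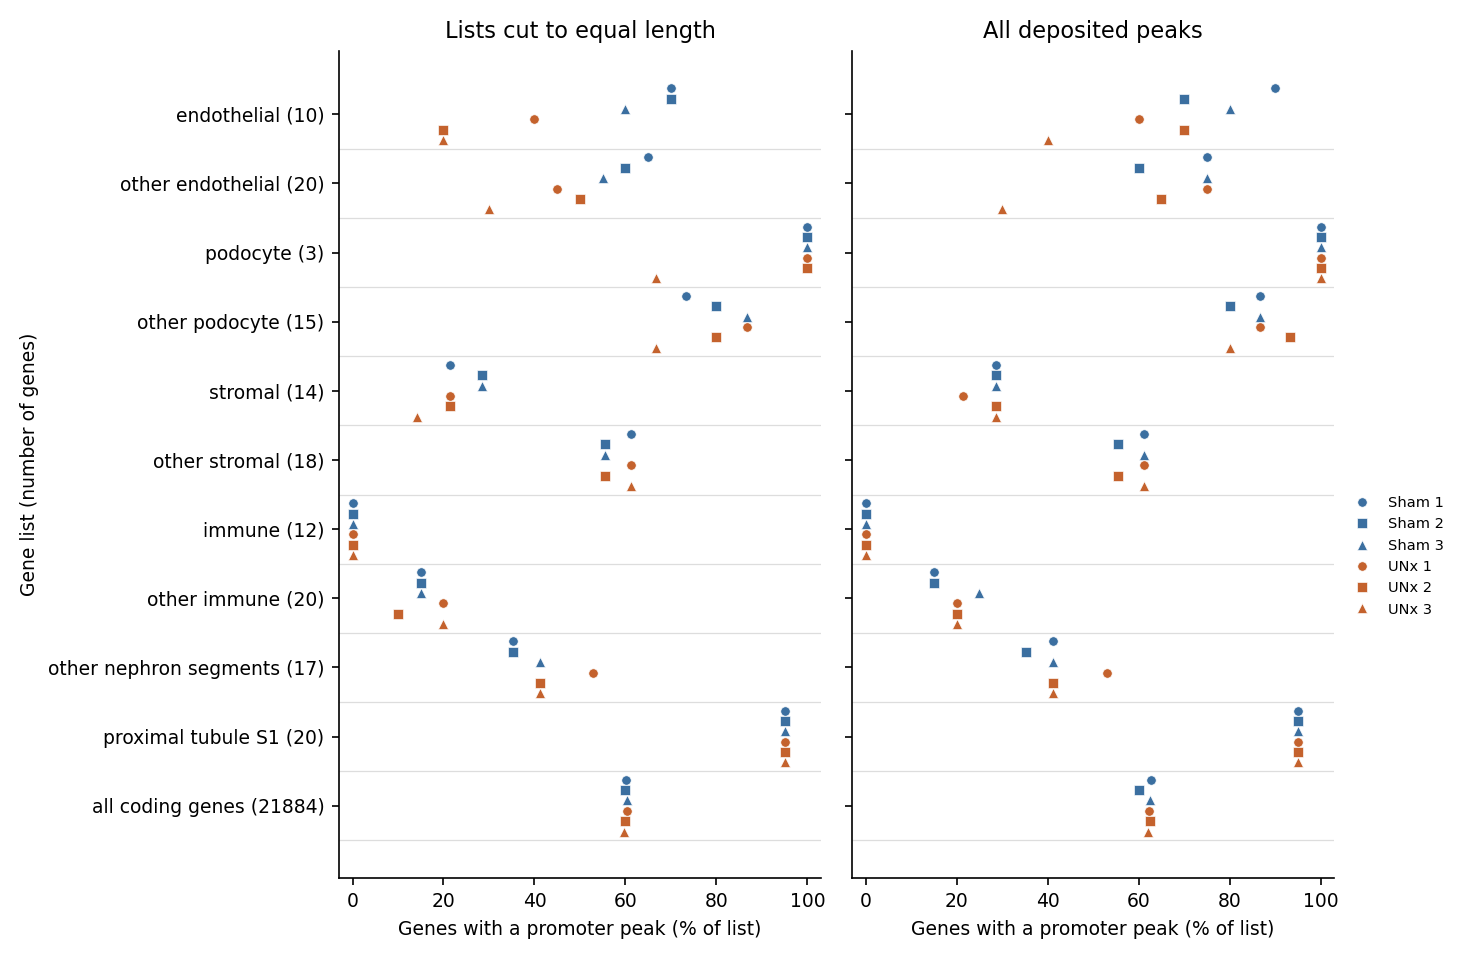
Share of the genes of each list (in %, x axis) with a promoter peak in each library (Sham in blue, UNx in orange, 1 symbol per replicate), in lists cut to equal length (left) and in all deposited peaks (right). On the left the 3 UNx values of both endothelial lists lie below the 3 Sham values, and on the right they overlap. The 12 immune genes stay at 0 in both panels, unlike the 20 other immune genes.

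In the fit across all coding genes, 13260 promoters had a peak in at least 3 of the 6 lists and were tested with limma, and 0.0226% were called at an adjusted p of 0.05. Of the 39 genes 11 were tested, 0 were called, and 2 (Ehd3 and Synpo) had an unadjusted p under 0.05. A promoter's 3 UNx values lay wholly above its 3 Sham values in 2 of the 11 (Egfl7 and Synpo) against 9.23% of all tested promoters, and wholly below in 3 (Ehd3, Flt1 and Col1a1) against 10.6%. Flt1 entered the test through its 3 Sham peaks alone, which fixed its direction, and among promoters with a peak in both groups 2 of 10 lay wholly below, against 10.4% of all such promoters. A gene reached this test only with peaks in enough lists, so those 11 do not stand for all 39.

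Among endothelial genes, Ehd3 had the strongest promoter. It encodes an endocytic recycling protein and is a marker of glomerular endothelium. Its percentile was 95.7, 95.7 and 96.9 in Sham and 93.5, 90.6 and 80.3 in UNx, and the groups did not overlap. The difference was −7.94 (SE 2.76, limma adjusted p = 0.231), and without UNx 3 it was −4.01 with an adjusted p of 0.255. Ranked by fold enrichment it was −0.461 and in the 20000 strongest peaks −30.7, with adjusted p-values over all alternatives from 0.123 to 0.868. The authors' fold enrichment of the peak was 20.1, 16.2 and 20.4 in Sham and 18.0, 18.6 and 21.1 in UNx, with overlapping groups. The peak, at chr17:73804539-73805276 in Sham 3, covers the CpG-rich sequence shown above, with the summit 111 bp from the start.

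Egfl7, a protein secreted by endothelial cells that also hosts a microRNA, was the endothelial gene that went the other way. Its promoter percentile was 24.8, 34.4 and 37.2 in Sham and 46.9, 54.6 and 44.9 in UNx, wholly higher in UNx, with a difference of 16.7 (SE 8.56, limma adjusted p = 0.398). The peak lies at an internal start of Egfl7, 255 bp from it in UNx 2, and a start of the neighbouring gene model Gm20532 is within 1 kb, so its owner cannot be told from position. The summit lay 40 to 45 bp from the Egfl7 start in Sham and 227 to 268 bp from it in UNx.

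The receptors of vascular growth factors and angiopoietins had weak promoter peaks, mostly in Sham. Flt1, a receptor of VEGF, stood at 7.7, 11.6 and 20.3 in Sham and had no peak in the equal-length list of any UNx library (difference −13.2, SE 10.3, limma adjusted p = 0.588, and −27.7 when ranked by fold enrichment). In all deposited peaks UNx 2 and UNx 3 held it at 8.0 and 7.8, near the end of their lists, and Sham 1 to 3 at 27.0, 11.6 and 36.4. Kdr, the main signalling receptor of VEGF, had a peak in Sham 2 (16.9) and Sham 3 (4.7) alone, yet all 6 uncut lists held it, at 17.0, 16.9 and 24.01 in Sham and 16.9, 20.6 and 12.9 in UNx. The Kdr promoter thus had a peak in every library, in the lower part of the lists. Tie1, an orphan receptor of the angiopoietin system, stood at 39.4, 6.8 and 12.4 in Sham and at 35.0 in UNx 1, with no peak in UNx 2 and UNx 3, although the uncut list of UNx 2 held it at 14.3 (difference −7.88, SE 12.3, limma adjusted p = 0.804). Its ranks in Sham 1 and UNx 1 were alike and the direction of its difference turned when Sham 1 was left out (2.07), while it was −14.3 without Sham 2, −19.6 without UNx 1 and −2.04 without UNx 2 or without UNx 3. Tek, the angiopoietin receptor, had a peak in Sham 2 alone, at 11.7.

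The genes of endothelial contacts and surface were weaker still. Cdh5, the cadherin of endothelial junctions, stood at 3.5, 11.3 and 0.18 in Sham and at 4.4 in UNx 1, with none in the other two UNx lists (difference −3.51, SE 10.4, limma adjusted p = 0.913). The uncut list of UNx 2 held it at 10.9, and the difference was −0.357 without Sham 2 and −5.91 without Sham 3. Pecam1, an adhesion molecule of endothelial junctions, had a peak in Sham 1 alone (12.3), at an internal start. Emcn, a sialomucin of capillary and venous endothelium, also had a peak in Sham 1 alone (4.0), and the uncut list of Sham 3 held it at 13.8. Plvap, which forms the diaphragms of fenestrated capillaries such as those around the tubules, had none in the equal-length lists and was present in 4 of the 6 uncut lists.

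**Figure D3:**
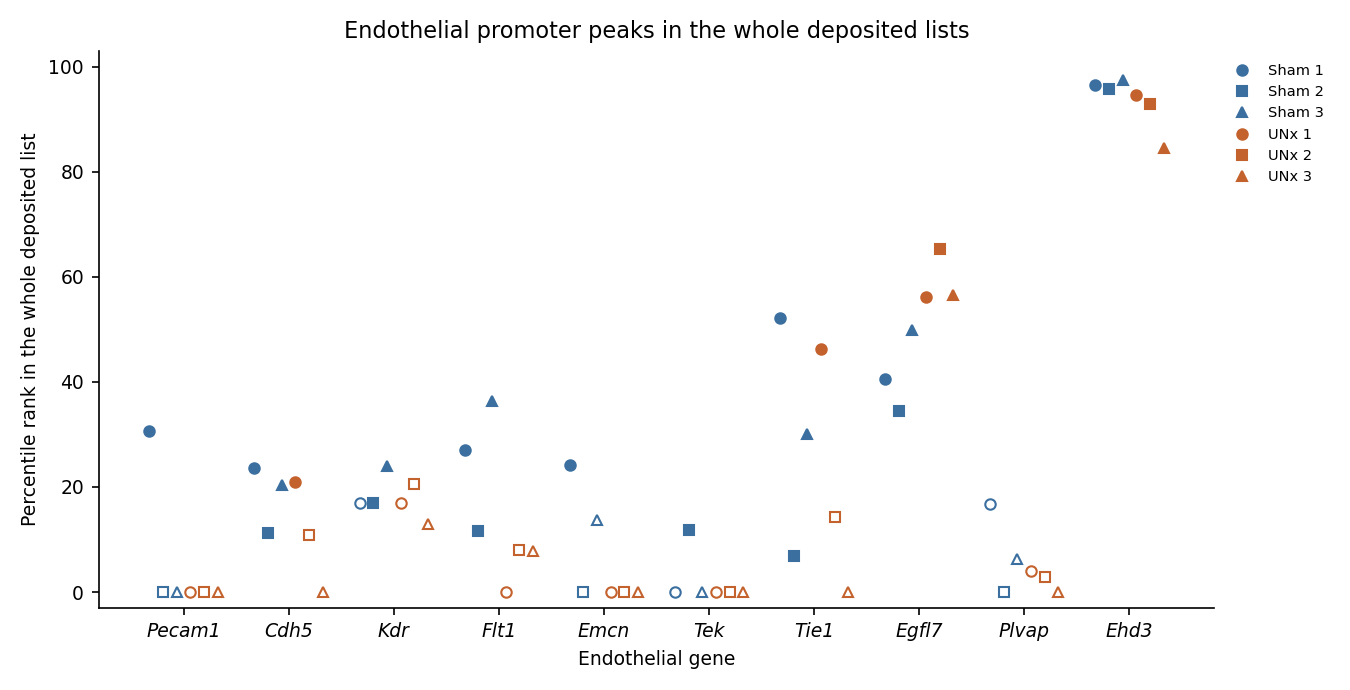
Percentile rank (y axis, 0 means no peak) of the promoter peak of each of the 10 endothelial genes in the whole deposited list of each library, with filled symbols for peaks that remain after the lists are cut to equal length and open symbols for those that do not or are absent. Ehd3 stands near the top in all libraries, Egfl7 in the middle, and the open symbols of Kdr and Flt1 show peaks in UNx libraries that the cut removed.

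The 3 podocyte genes were open in nearly all lists, at middle ranks. Podxl, the sialomucin that keeps podocyte foot processes apart, stood at 59.8, 48.1 and 52.8 in Sham and 43.1, 35.4 and 56.9 in UNx, with overlapping groups (difference −8.40, SE 8.24, limma adjusted p = 0.680). The difference was −5.28 without Sham 1, −3.53 without UNx 2, −14.3 without UNx 3 and −3.02 in all deposited peaks. Nphs1 encodes nephrin, the defining protein of the slit diaphragm, and stood at 32.6, 15.5 and 12.2 in Sham and at 24.4 and 47.0 in UNx 1 and UNx 2, with none in UNx 3, whose uncut list held it at 10.2 (difference 3.69, SE 11.9, limma adjusted p = 0.921). Its direction turned without Sham 3 (−0.248) and without UNx 2 (−7.91), and it was 9.93 without Sham 1, 1.40 without Sham 2 and 15.6 without UNx 3.

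Synpo encodes synaptopodin, an actin-associated protein of podocyte foot processes that is also made outside podocytes. Its percentile was 59.4, 58.3 and 44.0 in Sham and 71.7, 80.8 and 80.0 in UNx, wholly higher in UNx (difference 23.6, SE 6.20, limma adjusted p = 0.170). These values came from different peaks, because the strongest peak in Sham lay 786 to 808 bp from 1 of the starts and the strongest in UNx 30 to 35 bp from another. The peak near that other start stood at 52.4, 46.6 and 40.1 in Sham. At a distance like that of the strongest Sham peak, UNx 1 and UNx 3 had peaks at 54.7 (831 bp) and 50.2 (783 bp). UNx 2 had one at 39.1, 1017 bp from a start and outside the 1 kb limit. Those ranks overlapped with Sham, so the higher UNx value of the gene is that of the other peak. With the merged region around it as the gene's value, Synpo differed by 31.1 (limma adjusted p = 0.0373, adjusted over all tested regions). That region was taken because it holds the gene's strongest summit, which is in UNx 2, so the choice favoured a higher value in UNx. With a start window of 500 bp the difference was also 31.1, with a limma adjusted p of 0.121. Over all alternatives the adjusted p ran from 0.0373 to 0.371.

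Stromal promoters fell into 2 kinds, 2 genes at high ranks in every list and the others absent or weak. Pdgfra, a growth factor receptor of fibroblasts, stood at 85.7, 77.7 and 93.1 in Sham and 82.5, 86.1 and 92.6 in UNx (difference 1.57, SE 3.93, limma adjusted p = 0.893), and its direction turned without Sham 2 (−2.34) and without UNx 3 (−1.20), and it was 5.38 without Sham 3 and 3.85 without UNx 1. The peak lies in an intron, 471 bp from an internal start (chr5:75155877-75156642 in Sham 3). Col1a1, a chain of type I collagen, stood at 69.4, 68.9 and 69.1 in Sham and 54.1, 66.1 and 63.0 in UNx, wholly lower in UNx (difference −8.11, SE 5.84, limma adjusted p = 0.556). The difference was −4.63 without UNx 1, −4.40 in all deposited peaks and −1.19 when ranked by fold enrichment. Its summits lay 957 to 983 bp from the start, in an intron and only just inside the 1 kb limit. So neither of the stromal genes present in all lists had its peak at the main start.

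Myh11, the smooth muscle myosin heavy chain, was weak and uneven: 8.3, 7.3 and 24.7 in Sham, 0.33 and 47.7 in UNx 1 and UNx 2, and none in UNx 3, whose uncut list held it at 3.80 (difference 2.57, SE 12.8, limma adjusted p = 0.948). With 1 library left out its difference ran from −13.3 (without UNx 2) to 10.6 (without UNx 3), and it was −0.509 without Sham 2, so its direction was not settled. Des, an intermediate filament of muscle and pericytes, had a peak in Sham 3 alone (9.8) in the equal-length lists, but in the uncut lists it was in Sham 1, Sham 3, UNx 2 and UNx 3, at 7.49, 28.1, 15.2 and 6.32. Col1a2, the second chain of type I collagen, had one in Sham 2 alone (16.8), also in the uncut lists. The other 9 had no promoter peak in any list: Pdgfrb and Rgs5 (pericytes), Acta2, Tagln and Cnn1 (contractile proteins), Ren1 (renin), Col3a1, Dcn and Lum (fibrous matrix). Tagln fell just outside the limit, with a summit 1045 to 1061 bp from its start and percentiles of 71.9, 79.5 and 69.6 in Sham and 76.1, 61.3 and 49.2 in UNx.

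None of the 12 immune promoters had a peak in any list: Ptprc (the pan-leukocyte phosphatase CD45), Cd68, Csf1r, Adgre1, Cx3cr1, C1qa and C1qb (macrophages), Lyz2, S100a8 and Itgam (myeloid cells), Spi1 (the myeloid factor PU.1) and Cd3e (T cells). In peaks of the whole lists the count was 0 of 12 as well. The lists hold only peaks past the authors' threshold, so these genes were below detection in the lists rather than shown to be closed.

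The promoter sequences of the genes were compared with those of coding genes over a 300-base window, from 250 bases before to 50 after the RefSeq start, where the table held them (24 of the 39 genes, and 16505 coding genes). A window was called CpG-rich when its CpG observed over expected was at least 0.6 and its GC content at least 50%. Only Ehd3, Flt1 and Kdr were CpG-rich, 12.5% of the 24, against 47.4% of coding genes. CpG-rich windows of coding genes had a promoter peak in at least 1 list in 92.6% of cases and in all 6 lists in 87.5%. Of the 3 genes only Ehd3 had one in all 6 lists, while Flt1 and Kdr had one in 3 and 2 lists. Among the 21 CpG-poor windows, 61.9% had no peak in any list, close to the 59.0% of CpG-poor coding genes, while 9.52% had one in all 6 lists against 33.3%. Those in all 6 lists were Egfl7 and Pdgfra, whose peaks lie at internal starts outside these windows. All 8 immune windows in the table were CpG-poor.

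Exact strings of known motifs were searched on both strands of the same windows. Genes without a window, among them Pecam1, Cdh5, Tagln, Myh11, Csf1r and Spi1, were not searched. The ETS type CCGGAAGT was in 0 of 24 windows (5.51% of coding genes), the PU.1 type GAGGAAGT in that of S100a8 only (3.13%), the SP type GGGCGGGG in 3 (24.6%), the NRF1 type GCATGCGC in 0 (3.76%) and the CArG box, the serum response element of smooth muscle genes, in 0 (1.54%). The E-box type CAGCTG was in 8 windows (33.3%, against 15.3%) and TATAAA in 5 (20.8%, against 12.9%). The ETS and PU.1 strings share the bases GGAAGT. A match of letters is a description and not a bound site.

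**Figure D4:**
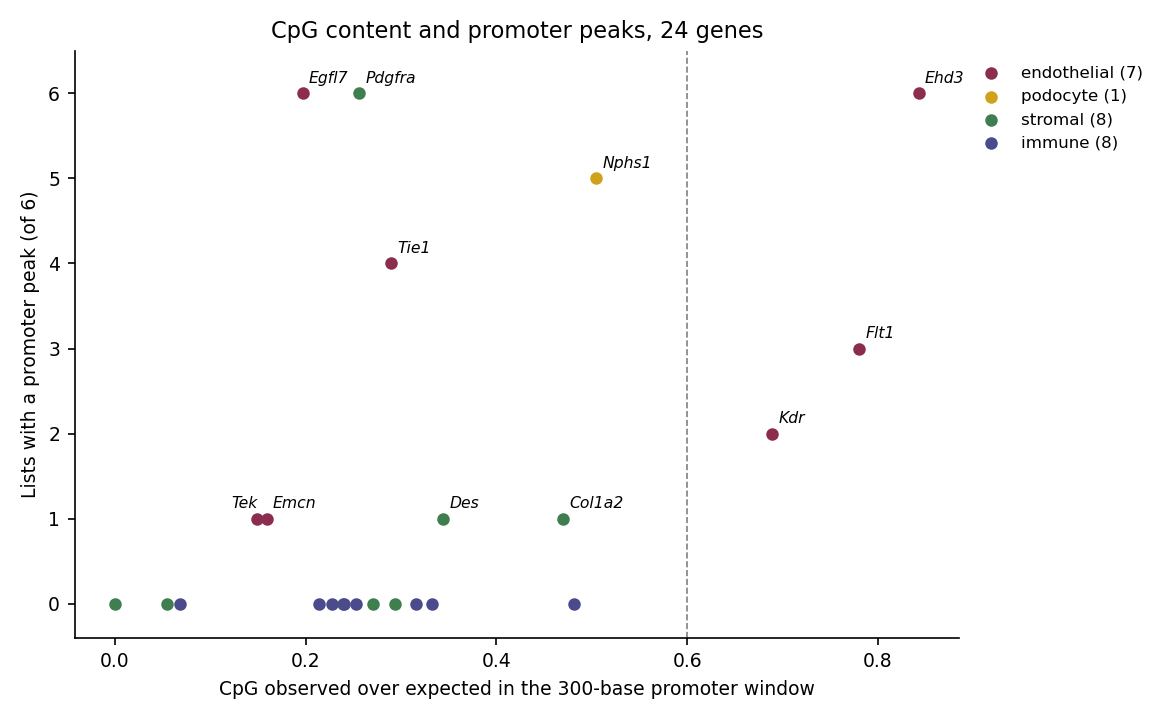
CpG observed over expected in the 300-base promoter window (x axis, dashed line at 0.6) and number of lists, of 6, with a promoter peak (y axis) for the 24 genes with a RefSeq window, coloured by cell class. The 3 genes to the right of the line are endothelial and the 8 immune genes lie at 0 lists.

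Apart from promoters, 176 distinct regions lay in the bodies of the genes or within 20 kb, and 67 of them were present in all 6 lists. Egfl7, Plvap and Pecam1 had 10 each and Cx3cr1 had 16, while Dcn, Adgre1 and Lyz2 had 0. Such windows also take in neighbouring genes: 23 regions lay within 1 kb of the start of another coding gene and had a median percentile of 76.5, 63 were nearest to another gene's start (19.2), and 90 were nearest to the marker gene itself (14.0). The median over all merged regions was 31.1. The annotated Cx3cr1 spans 168264 bp, and all its regions except that 3494 bp from its start were nearest to Csrnp1, Xirp1 or Gorasp1. Most Plvap regions were likewise nearest to the start of another gene. By class, the endothelial windows held 42, 38 and 32 regions in Sham and 33, 28 and 23 in UNx, with overlapping groups. The podocyte windows held 18, 16 and 19 against 16, 19 and 18, the stromal windows 31, 27 and 34 against 31, 31 and 31, and the immune windows 38, 38 and 42 against 33, 37 and 41.

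Over all classes the windows held 129, 119 and 127 regions in Sham and 113, 115 and 113 in UNx, in lists of equal length. In uncut lists the order was not kept (164, 119 and 158 against 144, 159 and 143). All merged regions in the lists of equal length numbered 73969, 70077 and 74154 in Sham and 71738, 73498 and 75617 in UNx, with overlapping groups. Of all 74781 merged regions tested with limma 0.788% were called at an adjusted p of 0.05, and of the 125 tested near the marker genes 2 were called, which is 1.6%. The 3 UNx values lay wholly below the 3 Sham values in 24 of the 125 (19.2%, against 11.7% of all regions) and wholly above in 10 (8%, against 12% of all regions). Of the 24, 3 (near Ptprc, Ren1 and Podxl) reached the test through Sham peaks alone, which fixed their direction, and among regions with a peak in both groups 21 of 122 lay wholly below (17.2%, against 10.8% of all such regions). The median difference was −4.47 for the 125 and −0.0112 for all regions tested.

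The first call was in a Tagln intron (chr9:45932120-45933380), 3253 bp from the start of Tagln, which encodes the actin-binding protein transgelin of smooth muscle. Its percentile was 72.4, 65.3 and 66.8 in Sham and 85.9, 86.3 and 88.8 in UNx, wholly higher in UNx (difference 18.9, SE 4.11, limma adjusted p = 0.0420). The antisense gene model Gm48529 covers the same intron. A region nearer the Tagln start, 1055 bp from it, went the other way (difference −11.5, SE 6.58, limma adjusted p = 0.363), with overlapping groups. The second call, between genes, lay 19195 bp from the nearest start of Egfl7 (chr2:26561590-26562163), at 80.7, 85.5 and 78.6 in Sham and 62.3, 53.9 and 56.5 in UNx, wholly lower in UNx (difference −23.98, SE 5.29, limma adjusted p = 0.0428). It moved opposite to the Egfl7 promoter, whose percentile was higher in UNx. Both calls were lost when any single library was left out, with adjusted p-values over all alternatives from 0.0251 to 0.318 for Tagln and from 0.0226 to 0.290 for Egfl7. The Tagln difference was 49.8 in the 20000 strongest peaks and the Egfl7 difference −15.2 when ranked by fold enrichment. The 201 bases centred on the strongest summit of each are shown because these are the regions that passed the test, on the plus strand of GRCm38.p6 with CG in capitals, at chr9:45932705-45932905 and chr2:26561761-26561961.
Tagln intron: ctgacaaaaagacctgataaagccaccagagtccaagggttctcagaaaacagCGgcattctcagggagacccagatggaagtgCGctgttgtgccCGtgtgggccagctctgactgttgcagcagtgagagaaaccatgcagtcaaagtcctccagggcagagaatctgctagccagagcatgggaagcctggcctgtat
Egfl7 upstream region: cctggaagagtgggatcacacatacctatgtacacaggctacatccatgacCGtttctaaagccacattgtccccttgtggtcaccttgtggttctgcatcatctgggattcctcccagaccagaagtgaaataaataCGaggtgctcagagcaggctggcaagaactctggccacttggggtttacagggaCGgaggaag
Each held 3 CGs and none of the 7 motif strings searched in the promoters.

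The next 8 regions by unadjusted p did not pass the threshold. At Cd3e, a subunit of the T cell receptor complex, a region between genes 13364 bp from the start stood at 41.1, 48.7 and 44.8 in Sham, had no peak in UNx 1 and UNx 2 and stood at 15.3 in UNx 3 (difference −39.8, SE 10.6, limma adjusted p = 0.0747). In an intron of Ptprc, 89253 bp from its start, a region stood at 29.5, 43.4 and 48.3 in Sham and 1.07, 13.7 and 2.28 in UNx (difference −34.7, SE 10.8, limma adjusted p = 0.108). For both, the nearest coding start is that of the gene itself, and the UNx ranks were at the lower end of the lists or absent. A region 10915 bp from the Tie1 start stood at 67.6, 63.7 and 67.4 in Sham and 45.0, 48.1 and 43.9 in UNx (difference −20.6, SE 6.89, limma adjusted p = 0.129). In a Myh11 intron far from the start, a region stood at 18.4, 46.3 and 29.6 in Sham and at 5.53 in UNx 1, with no peak in UNx 2 and UNx 3 (difference −29.6, SE 10.2, limma adjusted p = 0.136). A Synpo intron region, 3772 bp from a start, stood at 82.6, 68.6 and 81.2 in Sham and 86.4, 89.3 and 92.2 in UNx. The difference was 11.9 (SE 3.71, limma adjusted p = 0.109), in the direction of the strongest Synpo promoter peak. That difference was 7.43 without Sham 2, 5.59 when ranked by fold enrichment and 38.7 in the 20000 strongest peaks.

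The remaining 3 of these regions belong by position to neighbouring genes. The one near Plvap lies in a coding exon of Ccdc194 and stood at 77.0, 81.1 and 69.2 in Sham and 44.1, 36.1 and 61.3 in UNx (difference −28.6, SE 7.24, limma adjusted p = 0.0626). The one near Cd68 lies 3 bp from a start of Tnfsf13 and stood at 63.7, 75.8 and 74.3 in Sham and 91.8, 84.6 and 83.2 in UNx (difference 15.3, SE 4.35, limma adjusted p = 0.0882, and 45.6 in the 20000 strongest peaks). The one near S100a8 lies 1225 bp from S100a7a and stood at 58.0, 69.9 and 73.5 in Sham and 50.4, 45.0 and 9.35 in UNx (difference −32.2, SE 9.87, limma adjusted p = 0.104), with UNx 3 far below the others and a difference of −19.4 without it. In each of the 10 regions the groups did not overlap, but this is no separate result, because the regions were picked by their small p. Over all tested regions 11.7% lay wholly below and 12% wholly above.

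**Figure D5:**
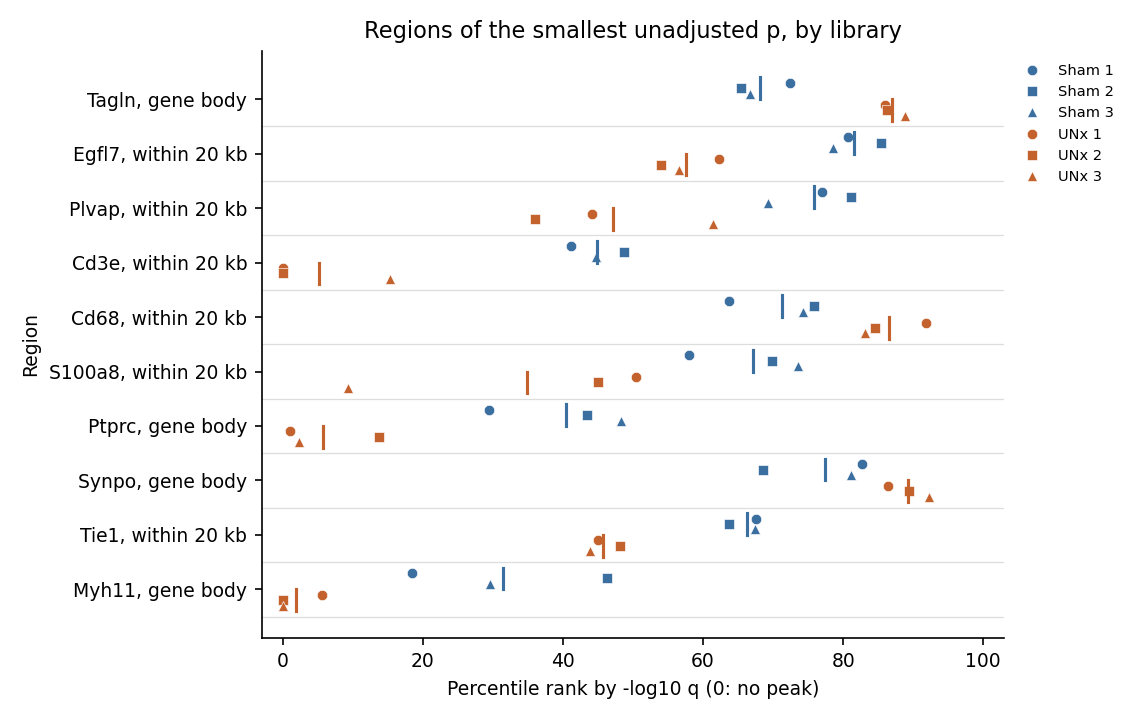
Percentile rank (x axis, 0 means no peak) in each library of the 10 regions in the gene body or within 20 kb of the genes with the smallest unadjusted p (rows, smallest at the top), with Sham in blue, UNx in orange and a bar at each group's mean. The top 2, at Tagln and Egfl7, passed the adjusted threshold. The groups lie apart in all 10, which were picked by their small p.

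Strong peaks near immune genes were present in every list even though their promoters were not. In a Spi1 intron, 5499 bp from the start, a region stood at 93.2, 94.4 and 92.6 in Sham and 92.4, 88.5 and 80.6 in UNx (difference −6.22, SE 2.59, limma adjusted p = 0.208). At the far end of Cd3e, in its untranslated last part 10233 bp from the start, a region stood at 90.2, 88.7 and 95.2 in Sham and 89.5, 93.4 and 89.4 in UNx (difference −0.602, SE 2.2, limma adjusted p = 0.917). In a coding exon of Csf1r, the receptor that macrophages need for survival, a region 4451 bp from the start stood at 76.3, 66.9 and 70.1 in Sham and 70.1, 72.0 and 83.0 in UNx (difference 3.96, SE 5.13, limma adjusted p = 0.724). A peak inside an immune gene thus occurred at high rank in libraries in which none of the 12 immune promoters had one, and which cells it came from was not tested.

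At stromal genes, the strongest region nearest to its own gene lay 3029 bp from the start of Cnn1, the smooth muscle protein calponin, at 80.2, 91.6 and 79.7 in Sham and 79.8, 84.1 and 82.0 in UNx (difference −1.84, SE 3.61, limma adjusted p = 0.831). In an intron of Ren1, the renin gene of juxtaglomerular cells, a region 3190 bp from the start stood at 63.3, 82.7 and 69.0 in Sham and 54.7, 49.2 and 58.3 in UNx, wholly lower in UNx (difference −17.6, SE 6.65, limma adjusted p = 0.168). Another Ren1 region, 2549 bp from the start, went the other way (difference 7.42, SE 10.1, limma adjusted p = 0.739). Of endothelial genes, an intron of Pecam1 stood at 53.8, 47.6 and 61.8 in Sham and 40.5, 36.6 and 16.0 in UNx, wholly lower in UNx (difference −23.4, SE 9.56, limma adjusted p = 0.200). Some other regions in the Pecam1 window were also lower. Those 7650 bp and 77331 bp from a Pecam1 start were higher in UNx (differences 9.37 and 34.3, limma adjusted p = 0.621 and 0.184). The more distant of them lies between genes and is nearest to a start of Tex2, 24998 bp away. The regions of this paragraph and the one before it were picked after their values were seen.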

How the data were processed

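ATAC-seq peak lists of 6 libraries (3 Sham, 3 UNx) were used, 1 list per library in build mm10. Cutadapt 3.4, Bowtie, SAMtools, Picard and MACS2 2.2.7.1 are named, with no order, in the submitters' processing notes. In each deposited list the columns hold a score, the fold enrichment (a ratio), −log10 p, −log10 q and the summit of each peak, as the authors' peak caller gave them; replicates were not pooled. The lists carry no read counts, so the depth is unknown and no count test was run. Peaks on chromosomes 1 to 19, X and Y were reduced to distinct intervals with their strongest summit, ranked by −log10 q and cut to 77355. Gene starts came from GENCODE M21 (basic set). Promoters of all coding genes and all merged regions (overlap of at least 1 bp) with a peak in at least 3 lists were tested with limma 3.58.1 (R 4.3.3, moderated variance with trend and robust settings, 2-sided, p-values adjusted by Benjamini-Hochberg) on percentile ranks. The script was tested on simulated data. Values by library are given for genes with a promoter peak in at least 3 lists and for the 10 regions with the smallest p; the other named values were added after values were seen. Members and lists were chosen with earlier results of these data known. The comparison lists, of 15 to 20 genes, were 4 of the same cell classes, 1 of proximal tubule and 1 of other nephron segments. Promoter sequences are from RefSeq (GRCm38.p6).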

Additional observations from a re-analysis of the deposited data

How the results depend on the processing

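Depth could not be read from the lists, so absence of a peak sets no upper limit. Counts of promoters called over all coding genes (3) were 1 with the 20000 strongest peaks or with every summit as its own peak, 21 with a start window of 500 bp, 88 with normal scores, 9 with GC-corrected ranks, 6 with the replicate block and GC correction, 52 with the value of the merged region, and 0 (without Sham 2 or Sham 3) to 14 (without UNx 3) with 1 library left out; the cause was not tested. With the merged region 1 member promoter (Synpo) was called, through a region picked by its strongest summit, which was in UNx 2. Counts of regions called (589) were 22 in all deposited peaks, 2 with the 20000 strongest, 3 when ranked by fold, 2 with no filter on presence, 1583 with normal scores, 56 with the replicate block, 2 with GC correction, 0 with block and GC correction, and 30 (without Sham 3) to 379 (without UNx 2) with 1 library left out. Of the 2 member regions called, 0 remained in all deposited peaks, with the 20000 strongest, by fold, with no filter, with plain variance, with the block, with GC correction, with both, and without any 1 library (0 to 0), and 4 were called with normal scores (Tagln, Egfl7, Plvap and Cd3e). The labels do not say whether libraries of the same replicate number were handled together. Correlations of same-number deviations lay between −0.065 and 0.042 for promoters and between −0.100 and 0.00819 for regions. With 3 libraries per group they cannot settle whether the libraries were paired. The replicate block gave 2 promoter calls and 56 region calls.

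Members with a promoter peak (UNx minus Sham, −5.33 genes) differed by −2.67 in all deposited peaks, by −2 there without UNx 3 (chosen after seeing the data), by 0.667 in the 20000 strongest, by 0 with −log10 q of at least 5, and by −6.33 to −4.33 with 1 library left out. For the 10 endothelial genes (−4) these were −2.33, −1.5, 0, −0.333 and −4.67 to −3.67. For the 20 other endothelial genes (−3.67) they were 0 in all deposited peaks without UNx 3, 0 in the 20000 strongest, −2 with −log10 q of at least 5, −2 with a 500 bp window, and −4.5 to −2.5. The lists with −log10 q of at least 5 were cut again to the shortest of them. Member regions per list (−11.3) differed by 1.67 in all deposited peaks, 4.5 there without UNx 3, −0.667 in the 20000 strongest, −4 by fold, −15.7 with every summit and with a 50 kb flank, and −14.3 to −9.33 with 1 library left out.

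Promoter differences that turned: Nphs1 was −0.0284 and Myh11 −0.0607 with normal scores. With 1 library left out Tie1 ranged from −19.6 to 2.07, Nphs1 from −7.91 to 15.6, Pdgfra from −2.34 to 5.38 and Myh11 from −13.3 to 10.6.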
